A study of Mus musculus with 12 samples.

Results

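hnRNP H is an RNA-binding protein whose bound RNA was recovered from mouse striatum by cross-linking and immunoprecipitation followed by sequencing (CLIP-seq). The authors deposited 1 list of hnRNP H peaks for saline and 1 for methamphetamine, and the positions described here are the intron peaks that stood in the saline list and at no identical position in the methamphetamine list. There were 3611 of them, out of 9537 distinct positions in the saline list (37.9%) and 14711 in both lists together, and they made up 75.1% of the 4808 positions that were in the saline list only. A position was called intronic when its midpoint lay in an intron row of the deposited list and in none of its rows for untranslated regions, coding exons or other exons. For comparison, 3425 intron positions stood in the methamphetamine list only and 3281 in both lists. The lists were made from the same CLIP libraries that are counted below, so a higher level after saline is how these positions were chosen and is described without a test.

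All animals were wild-type C57BL/6J mice, aged 50 to 100 days, from a colony in which males heterozygous for an Hnrnph1 mutation were bred to C57BL/6J females. Every mouse received saline (10 ml/kg) on days 1 and 2, and on day 3 either saline again or methamphetamine, a psychostimulant that releases dopamine, at 2 mg/kg. Striata were taken 30 min after that injection, and each replicate was a pool of striata from 4 mice, 2 females and 2 males, with 3 pools per treatment, so that single animals cannot be told apart. CLIP libraries and RNA-seq libraries were made from the same pools, and hnRNP H complexes were cut from the membrane between 50 and 75 kDa, which corresponds to RNA fragments of 30 to 70 nt.

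hnRNP H belongs to a family of nuclear RNA-binding proteins, with hnRNP F as a close relative, that bind runs of G in RNA. In introns such runs often lie near splice sites, and binding there can promote or repress the use of the neighbouring exon. Long brain genes consist mostly of intron, and striatum is a region built mainly of projection neurons that respond to dopamine.

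The sequences below show what the G runs look like in individual peaks. Each is the 100 nt peak read 5′ to 3′ on the strand of the peak, taken from a GENCODE M21 transcript (GRCm38), with runs of 3 or more G in capitals. The first was among the 8 count-filtered positions with the most negative change and no overlap between groups. The next 4 held the most G-run bases among the count-filtered positions with a sequence. Ppp1r1b encodes the dopamine- and cAMP-regulated phosphoprotein DARPP-32. Its peak was among the positions with a sequence picked for a low change (log2 change -0.58), of which others are not shown. It was added after its values were seen because Ppp1r1b marks striatal projection neurons.
9130017K11Rik: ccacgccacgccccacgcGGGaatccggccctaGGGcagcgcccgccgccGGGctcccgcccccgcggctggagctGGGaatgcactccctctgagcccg
Auts2: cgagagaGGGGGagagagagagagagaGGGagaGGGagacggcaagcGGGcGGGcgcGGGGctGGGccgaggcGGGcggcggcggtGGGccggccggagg
Sh3glb2: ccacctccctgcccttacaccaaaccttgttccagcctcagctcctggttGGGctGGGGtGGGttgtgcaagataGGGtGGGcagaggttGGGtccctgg
Eml5: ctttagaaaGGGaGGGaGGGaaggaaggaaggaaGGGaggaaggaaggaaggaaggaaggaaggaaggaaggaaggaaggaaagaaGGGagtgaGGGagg
0610038B21Rik: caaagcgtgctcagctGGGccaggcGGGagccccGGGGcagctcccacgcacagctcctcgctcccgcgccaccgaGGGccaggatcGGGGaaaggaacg
Ppp1r1b: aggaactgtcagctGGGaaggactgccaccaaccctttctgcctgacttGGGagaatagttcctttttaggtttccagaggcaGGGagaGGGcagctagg

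The peak in 9130017K11Rik, a non-coding gene that runs opposite to Usp43, lay at chr11:67922205-67922304 on the plus strand and held 4 G runs. It lay in a GENCODE exon on its own strand, and its intron class came from a Usp43 row. The Auts2 peak (chr5:132543234-132543333, minus strand) held 9 runs, the most of the 6, with a longest run of 5. The Sh3glb2 peak (chr2:30347210-30347309, minus strand) and the Eml5 peak (chr12:98799406-98799505, minus strand) held 6 runs each. The peak in 0610038B21Rik (chr8:77517357-77517456, plus strand), a gene opposite to Arhgap10, held 5 runs, and the Ppp1r1b peak (chr11:98351405-98351504, plus strand) held 4, its sequence being the reverse complement of a transcript on the other strand. The 0610038B21Rik peak took its intron class from an Arhgap10 row, and its sequence from an exon on its own strand. Levels in these peaks are given as scaled CPM, which are counts per unit of library size (CPM) corrected with edgeR's TMM factors over the peaks that passed a filter on low counts. Auts2 had 14.7, 3.58 and 25.8 scaled CPM in the saline pools, given here and below in the order of replicates 1 to 3, and 14.4, 40.9 and 7.6 in the methamphetamine pools. Sh3glb2 had 59.9, 125 and 52.3 after saline and 63.8, 62.6 and 63.3 after methamphetamine. Eml5 had 48.6, 39.4 and 30.2 after saline and 49.4, 46.9 and 40.5 after methamphetamine. In these 3 the groups overlapped. So did they in 0610038B21Rik, with 45.2, 344 and 95 scaled CPM after saline and 405, 107 and 755 after methamphetamine. Its highest saline value was in replicate 2 and its lowest methamphetamine value in replicate 2.

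A sequence was at hand only where some GENCODE transcript has an exon over the peak. This was so for 164 of the 3611 positions (4.54%), 148 of them on the strand of the peak. Only 19 of the 164 lay in no exon of the gene they were called in. Most of the 164 were thus intronic by the deposited rows but exonic by GENCODE. Of these 164, 89.6% held a run of at least GGG (Wilson 95% interval 84.0 to 93.4, a counting interval over peaks that are not replicates) and 54.3% a run of at least GGGG (46.6 to 61.7), each motif searched on the strand of the peak. The shares were 90.5% and 56.8% in 241 intron positions of the methamphetamine list only, and 87.8% and 70.3% in 148 intron positions of both lists. Over all 26595 counted positions with a sequence, 71.5% held GGG and 36.8% held GGGG. For 131 of the saline-only positions a window 500 nt away lay in an exon of some transcript, not necessarily that of the peak. Among these 131, 88.5% of the peaks and 75.6% of the windows held GGG, and 54.2% and 38.9% held GGGG. Runs of C were no more frequent in the peaks than in these windows, at 71.8% of peaks and 73.3% of windows for CCC. They were more frequent than in all counted positions with a sequence, at 72.0% of the 164 peaks beside 63.8%. Median GC content was also higher there, at 56% in the 164 peaks beside 49%. The excess of G runs over all counted positions is thus not particular to G. These are descriptions of the small, exon-overlapping minority, and sequences of the other positions were not analysed here.

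**Figure D1:**
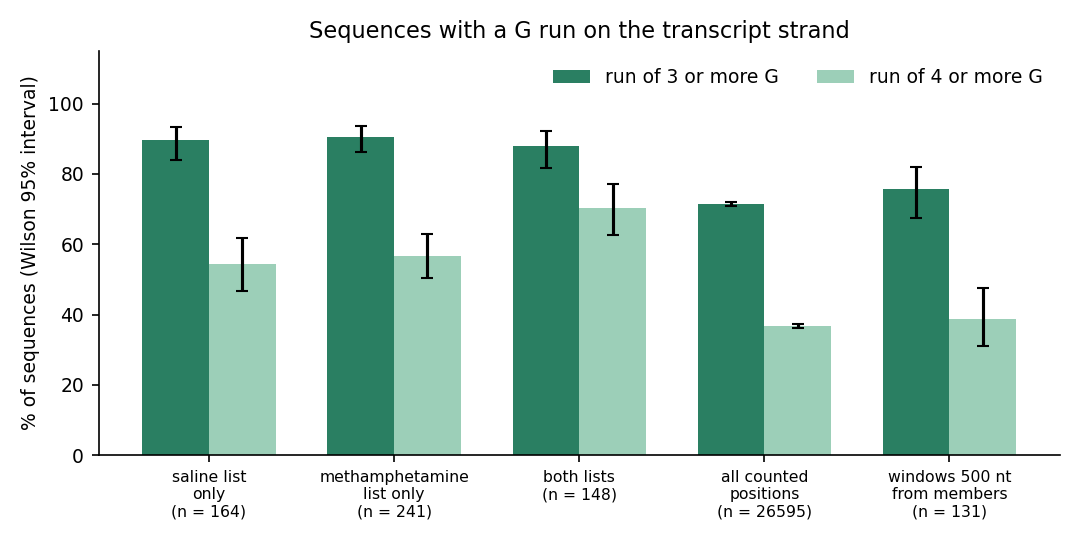
Share of sequences with a run of at least 3 or at least 4 G on the transcript strand (y axis, percent; bars, share; error bars, Wilson 95% interval) in intron peaks of each list class, in all counted positions and in windows 500 nt from the saline-only peaks. The saline-only bars stand at 89.6% and 54.3%, beside 71.5% and 36.8% for all counted positions.

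The positions were spread over many genes. They were called in 2537 genes, of which 1972 held 1 position, 565 held 2 or more and 64 held 5 or more, and 95.7% of the positions lay in protein-coding genes. In the GENCODE M21 annotation 3601 lay inside the gene they were called in, with 3436 of them in no exon on their strand, while 165 lay in an exon of some transcript, 117 of them in transcripts annotated as retained introns. A further feature of the lists is that peaks were called on a 100-bp grid that starts at each gene, so overlapping genes give overlapping positions. This made 65 of the 3611 overlap another of them, and 155 abutted another (4.29%, beside 10.3% of intron positions in both lists).

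Most positions lay deep in introns. By the deposited classes, 63.1% were in the distal class, 15.4% in the class within 500 nt of an exon and 21.5% in the class within 200 nt, beside 56.7%, 15.3% and 28.0% of methamphetamine-only and 59.6%, 15.8% and 24.6% of shared intron positions. Distances to exons in nt, here and for single peaks below, are from the midpoint of the peak, not from its edge. The median distance to the next exon edge on the 5′ side was 2876 nt, beside 1574 nt for methamphetamine-only and 1906 nt for shared positions, and on the 3′ side 3703 nt, beside 2328 and 2855 nt. The median length of the host gene, counted once per position, was 92.3 kb, beside 51.4 kb and 78.0 kb. Along the gene the median position was at 43.4% of its length from the start, beside 42.1% and 43.7%. Saline-only intron positions were thus in longer genes and farther from exons than the methamphetamine-only ones, while their place along the gene was alike. Across the 2537 genes the number of positions had a Spearman correlation of 0.386 with gene length, a description in which longer genes also offer more bins.

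Few of the positions had a methamphetamine peak close by. A methamphetamine-list position on the same strand overlapped 24 of them by at least 1 bp, abutted 226, and lay within 500 bp of 444 (12.3%), while 2678 had none within 10000 bp. Of the 2537 host genes, 1416 (55.8%) had no position at all in the methamphetamine list, 641 had an intron position in the methamphetamine list only and 646 had a shared intron position. The members with the highest of the authors' q-values were in Taf9 (0.04994), Atxn1 (0.04987) and Wwox (0.04985). Atxn1 had 9, 7 and 20 reads in the saline pools and 8, 10 and 8 after methamphetamine, and Wwox had 31 reads in saline replicate 2 and 0 in the other libraries. Just outside, the shared intron position in Naaladl2, with a methamphetamine q-value of 0.04958, stood in both lists. It had 43, 1 and 84 reads in the saline pools and 0, 51 and 1 after methamphetamine.

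CLIP depth ranged from 423057 to 1635338 peak reads per library, saline replicate 2 being the lowest, and RNA-seq depth from 3935160 to 5091839 reads. In both assays the first principal component set saline replicates 1 and 3 and methamphetamine replicate 2 (called set A) apart from saline replicate 2 and methamphetamine replicates 1 and 3 (set B). These sets come from the data, not the labels, and hold 2 libraries of one treatment and 1 of the other, so treatment and set are partly confounded. Striatal markers were present in every RNA-seq library, and the summed level of 25 striatal projection neuron genes ranged from 17362 to 19476 CPM over the set A libraries and from 13331 to 14640 CPM over those of set B. Of 12 choroid plexus genes the sum was 5350 CPM in methamphetamine replicate 2, while the remaining 5 libraries had 144 to 284. In bulk pools, fewer cells of a type and less RNA per cell cannot be told apart.

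Read counts were found for 3515 of the positions, and 96 had no line in the count table. Reads were present after both treatments at most of them. Only 78 had 0 reads in all methamphetamine libraries, 2028 had at least 1 read in each methamphetamine library, and 1001 had over 3 reads in each saline library. The median level was 11.3, 7.17 and 10.3 scaled CPM after saline and 6.17, 7.22 and 5.07 after methamphetamine. Saline replicate 2 lay just below methamphetamine replicate 2, so the library medians overlapped between the groups. Intron positions of both lists had medians of 17.7 to 19.2 after saline and 19.3 to 20.6 after methamphetamine. Within set A the median difference (log2 of mean scaled CPM + 1, methamphetamine minus saline) was -0.49, and within set B it was -0.0066. Methamphetamine-only intron positions showed the converse, with medians of 0.033 within set A and 1.86 within set B. Each difference within a set rests on 1 library on one side, methamphetamine replicate 2 in set A and saline replicate 2 in set B. Saline replicate 2 had a median of 2 reads at the saline-only positions. The part of the library sets in the choice of these positions was not tested.

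**Figure D2:**
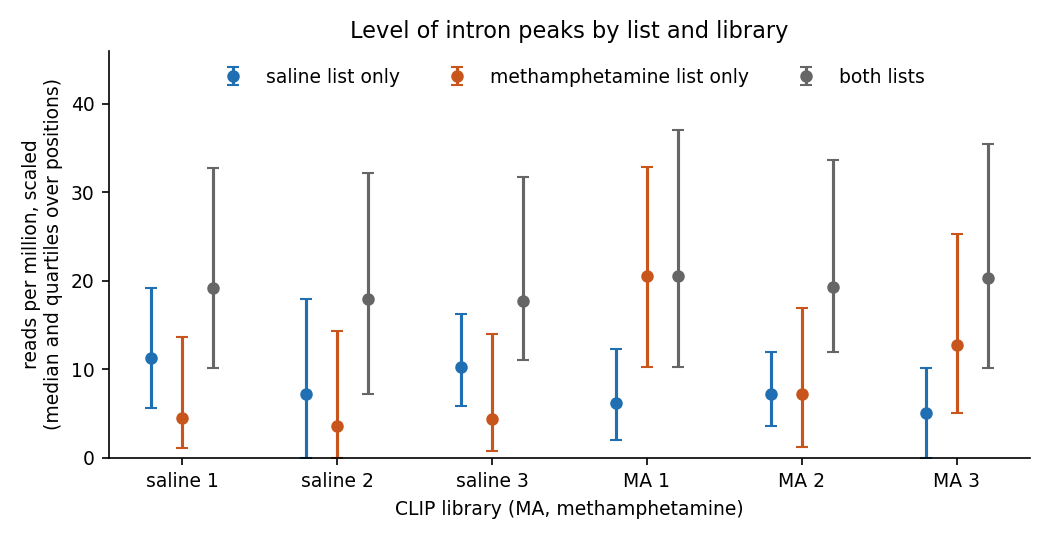
Level of intron peaks in each CLIP library (y axis, scaled CPM; points, median over positions; bars, lower to upper quartile) for positions in the saline list only, the methamphetamine list only and both lists. Saline-only positions have medians of 7.17 to 11.3 after saline and 5.07 to 7.22 after methamphetamine (MA), while shared positions stay between 17.7 and 20.6 in all 6 libraries.

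The positions drew 6.49% ± 0.62 of peak reads in the saline pools and 5.31% ± 2.38 after methamphetamine (SD, n = 3 pools each). By library the share was 6.63%, 7.03% and 5.81% for saline and 3.1%, 5.01% and 7.83% for methamphetamine, so the groups overlapped. A single position carried a large part of these reads. It was called in n-R5-8s1, a copy of the 5.8S ribosomal RNA gene, which the deposited list counts as near-intron sequence. Of the reads at these positions it took 54.1% in methamphetamine replicate 3, the highest share, and 7.7% to 16.2% elsewhere. Without it the share was 6.15%, 5.96% and 5.26% after saline and 2.62%, 4.29% and 3.75% after methamphetamine (5.79% ± 0.47 and 3.55% ± 0.85), and each saline library was above each methamphetamine library.

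Reads at single positions were often dominated by 1 library. In 804 of 3515 positions over 50% of the scaled reads came from 1 library, and in 135 over 90% did, of which 33 had them in saline replicate 1, 86 in saline replicate 2, 16 in saline replicate 3 and 0 in a methamphetamine library. The highest of the 6 values lay in a saline library for 2629 positions and in a methamphetamine library for 886. In 308 of the 3515 positions (8.76%) each saline library exceeded each methamphetamine library, beside 1.62% of all 147438 counted positions, and in 23 the reverse held. The choice of the positions used these libraries, so nothing is read from the difference.

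Of the 3515, 812 (23.1%) passed the count filter, and the others were too low to enter the fit. With edgeR's quasi-likelihood test, 0 of these 812 had an adjusted p under 0.05, beside 0.0% of all 10358 filter-passing peaks, and 27 (3.33%) were lower after methamphetamine at an unadjusted p under 0.05, beside 1.49% of all, with 10 higher. DESeq2 also gave 0 adjusted calls. Each saline library lay above each methamphetamine library in 62 of the 812 (7.64%), beside 3.62% of all filter-passing peaks. The median log2 change was -0.34 for the 812 and 0.047 for all. Since the lists were made from these libraries, nothing is read from these differences.

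The positions with the highest levels were in genes of low or moderate RNA level, and most of those described here overlapped between treatments. After the ribosomal position, the highest was in Tafa1, which encodes a secreted chemokine-like protein, at chr6:96592955-96593054 (plus strand), 56057 nt upstream of the next exon. It had 3013, 3697 and 2934 scaled CPM after saline and 2393, 3895 and 4187 after methamphetamine, while its RNA-seq level was -1.25, 0.66 and -0.69 log2 CPM after saline and 0.76, -1.55 and -3.37 after methamphetamine. Adamtsl1, which encodes a secreted protein of the extracellular matrix, held 3 of the 8 highest. Its first (chr4:86388573-86388672, plus strand, 75 nt after an exon) had 983, 1010 and 990 scaled CPM after saline and 949, 939 and 1667 after methamphetamine, and its second (chr4:85846073-85846172) had 712, 971 and 654 and then 656, 643 and 2282. Only the third (chr4:85735073-85735172) separated the groups, with 619, 717 and 632 after saline and 515, 618 and 527 after methamphetamine, the lowest saline and the highest methamphetamine value being nearly equal. Colec12, a scavenger receptor, and Ccn4, a matricellular protein, were also among the 8. Colec12 had 838, 1222 and 802 scaled CPM after saline and 1154, 764 and 1254 after methamphetamine, and Ccn4 had 454, 785 and 534 and then 712, 415 and 1735.

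By the authors' own signal value in the saline list, the leading positions were in Thnsl2 (6.36), Rhbg (5.76) and Zfp932 (5.55). Thnsl2 (chr6:71134267-71134366, minus strand) had 25 reads in saline replicate 1 and 0 in the other 5 libraries. Its midpoint lay 6 nt before an exon, so the peak reached into that exon. Rhbg, an ammonium transporter (chr3:88250575-88250674, minus strand), had 53 reads in saline replicate 2 and 0 to 2 in the others. Zfp932, a zinc finger gene (chr5:109997422-109997521, plus strand), had 253, 219 and 254 scaled CPM after saline and 216, 228 and 157 after methamphetamine. In Zfp932 the groups overlapped, and the other 2 of these 3 signals rest on 1 library each.

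The 8 filter-passing positions with the most negative change and no overlap between groups included the 7 described here, as examples chosen by that very change. They lay in Mir8109, Cacna1d, Zfat, 9130017K11Rik, Psmc4 and Prkar1b (which held 2 of them), with an edgeR adjusted p of 0.9998 each. Of their coding hosts, Cacna1d encodes a voltage-gated L-type calcium channel subunit, Prkar1b a regulatory subunit of the cAMP-dependent protein kinase, Psmc4 an ATPase of the proteasome and Zfat a zinc finger protein.

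Mir8109 is a microRNA gene on the strand opposite to Neto2, an auxiliary subunit of kainate receptors, whose intron row gave the peak its class. Its peak (chr8:85700906-85701005, plus strand) had 703, 10 and 68 reads in the saline pools and 6, 9 and 6 after methamphetamine, which is 795, 35.8 and 50.1 against 12.4, 10.8 and 15.2 scaled CPM. Most of the excess lay in saline replicate 1, and the log2 change of -4.53 became -1.78 without that library. The mature microRNA, inside the peak at chr8:85700935-85700955, is shown from RefSeq (GRCm38) with its seed (bases 2 to 8) in capitals, because it is the microRNA with the largest difference described.
mmu-miR-8109: gCGCCGCGugccggccgcggg

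In Cacna1d (chr14:30061140-30061239, minus strand, 4844 nt after an exon) there were 12, 6 and 35 reads in the saline pools and 0, 4 and 2 after methamphetamine, or 13.6, 21.5 and 25.8 against 0, 4.82 and 5.07 scaled CPM. Zfat (chr15:68212265-68212364, minus strand, 278 nt after an exon) had 72.3, 32.2 and 30.2 after saline and 0, 20.5 and 5.07 after methamphetamine. 9130017K11Rik, whose sequence is shown above, had 28.3, 32.2 and 97.2 after saline and 12.4, 14.4 and 17.7 after methamphetamine, with its highest value in saline replicate 3. Psmc4 (chr7:28047808-28047907, minus strand, 346 nt before an exon) had 13, 9 and 18 reads in the saline pools and 2, 8 and 0 after methamphetamine.

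The Prkar1b positions abutted each other at chr5:139149707-139149806 and chr5:139149807-139149906 on the minus strand, 162 and 62 nt after an exon. The first had 30.5, 35.8 and 25.03 scaled CPM after saline and 6.17, 9.63 and 10.1 after methamphetamine, with means of 30.5 ± 5.4 and 8.65 ± 2.16 (SD, n = 3 pools each), and the second had 30.5, 32.2 and 36.8 and then 2.06, 16.9 and 10.1. The spread between saline libraries was small here and none of them led. The methamphetamine list nevertheless held a peak over both, at chr5:139149777-139149876, called in an overlapping non-coding gene whose grid is shifted, with an authors' q of 0.0302. That peak, which was in both lists, had 32.8, 32.2 and 36.1 scaled CPM after saline and 2.06, 16.9 and 10.1 after methamphetamine. The host RNA of Prkar1b was 8.07, 8.62 and 7.5 log2 CPM after saline and 8.22, 7.76 and 8.61 after methamphetamine, and that of Cacna1d was 5.31, 5.65 and 5.15 and then 5.46, 5.31 and 5.63, so both overlapped between treatments.

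**Figure D3:**
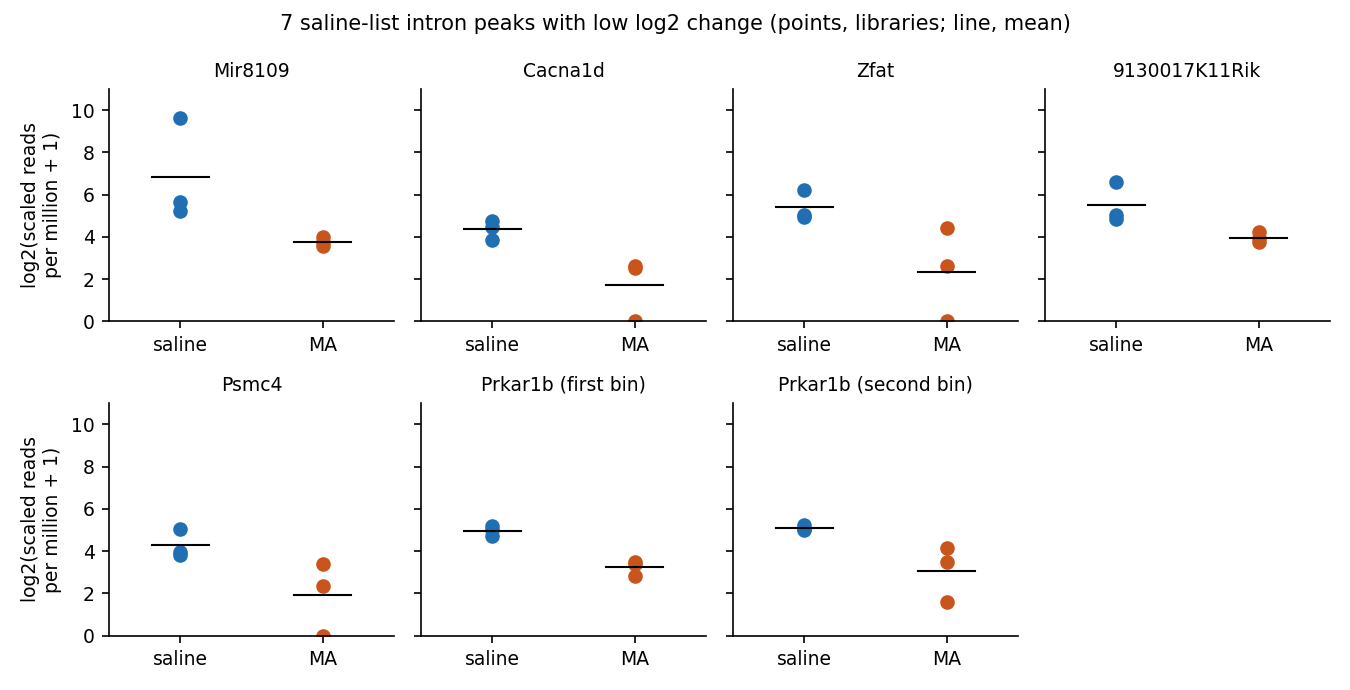
The 7 positions described above, from the filter-passing ones with the most negative log2 change and no overlap between groups (points, the 3 CLIP libraries of each treatment; line, mean; y axis, log2 of scaled CPM + 1). The positions were chosen by this separation; Mir8109 has 1 saline library far above the others, while both Prkar1b bins have saline values between 25.03 and 36.8 scaled CPM.

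The 6 genes with the most positions held 11 to 21 each. Rbfox1, a neuronal splicing factor, held the most (21 positions in 1526 kb), followed by Celf2, another RNA-binding splicing regulator (15), Nrxn3, a presynaptic adhesion receptor (12), Pde10a, the phosphodiesterase of striatal projection neurons (12), and Phactr1, a regulator of phosphatase 1 and actin, and Plcb1, a phospholipase C (11 each). The balance with the other list differed among them. Rbfox1 had 2 methamphetamine-only and 15 shared intron positions, Celf2 had 1 and 3, Nrxn3 had 0 and 6, and Plcb1 had 1 and 2. In contrast Pde10a had 43 methamphetamine-only and 27 shared positions, and Phactr1 had 23 and 15.

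Summed over its saline-only positions, Rbfox1 had 666, 527 and 336 scaled CPM after saline and 294, 425 and 258 after methamphetamine, so the groups overlapped. Celf2 had 335, 201 and 272 after saline and 124, 247 and 132 after methamphetamine, with methamphetamine replicate 2, the set A library, above saline replicate 2. Nrxn3 had 342, 308 and 177 and then 169, 155 and 132, without overlap. Plcb1 had 285, 100 and 210 and then 92.6, 140 and 83.6. Pde10a had 187, 258 and 180 and then 134, 169 and 124, again without overlap, although this gene had more positions in the methamphetamine list. Phactr1 had 253, 129 and 148 and then 255, 161 and 142, with no lower level after methamphetamine. Positions passing the count filter numbered 11 of 21 in Rbfox1, 6 of 15 in Celf2, 3 of 12 in Nrxn3 and 5 of 12 in Pde10a, so most of them rest on few reads.

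The lists of genes described next were chosen with earlier results of these data known. Of all genes measured by RNA-seq, 12.9% were hosts. Over all genes there were 3611 saline-only, 3425 methamphetamine-only and 3281 shared intron positions. The lists were not matched to other genes for length or RNA level. In the RNA-seq test 0 genes of any list passed the adjusted threshold, and the counts of positions are descriptions of the authors' calls. Of 25 striatal projection neuron genes measured by RNA-seq, 15 were hosts, with 42 saline-only, 128 methamphetamine-only and 60 shared intron positions. Besides Pde10a they included Adcy5, the main striatal adenylyl cyclase (9 saline-only positions, 5 methamphetamine-only), Drd2, the dopamine D2 receptor (3 and 1), Pde2a, a phosphodiesterase stimulated by cGMP (3 and 34), Rgs9, which shortens G protein signals (2 and 10), and Ppp1r1b (1 and 1). Drd2 had a summed level of 71.2, 14.3 and 29.4 scaled CPM after saline and 12.3, 33.7 and 20.3 after methamphetamine, and the Ppp1r1b position had 19.2, 7.17 and 14.7 and then 22.6, 6.02 and 0, both with overlapping groups. The Pde2a gene overlaps a second gene model on the same strand, so its counts are uncertain.

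Of 48 genes for synaptic adhesion and scaffolding, 35 were hosts, with 135 saline-only, 52 methamphetamine-only and 91 shared positions. After Nrxn3 the largest hosts were Cadm2, a synaptic cell adhesion molecule (10 saline-only and 1 methamphetamine-only), and Nlgn1, the postsynaptic partner of neurexins (8 and 2). Nlgn1 had a summed level of 229, 362 and 179 scaled CPM after saline and 195.5, 202.2 and 101.3 after methamphetamine, with overlap through saline replicate 3. The single Ptprd position, in a receptor phosphatase of synapses, was at 211, 183 and 193 after saline and 158.5, 234 and 190 after methamphetamine, so it did not separate the treatments. Ptprt, another receptor phosphatase, was at 570 scaled CPM in saline replicate 2 and 3.68 to 7.22 in each other library. Of these genes the saline list held more intron positions than the methamphetamine list, the converse of the striatal list.

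Among 39 glutamate and GABA receptor genes, 22 were hosts with 66 saline-only, 33 methamphetamine-only and 41 shared positions. Gria1, an AMPA receptor subunit, held 10 saline-only positions and 1 methamphetamine-only, yet its summed level was 129, 111 and 133 scaled CPM after saline and 126, 89.1 and 129 after methamphetamine. Its highest position (chr11:57011688-57011787, plus strand, 72 nt before an exon) was at 26.0, 25.1 and 51.5 after saline and 61.7, 38.5 and 83.6 after methamphetamine, with overlap only through saline replicate 3. Grid1, a glutamate receptor subunit of the delta type, had a summed level of 80.2, 125 and 87.6 after saline and 96.7, 57.8 and 53.2 after methamphetamine, with overlap. The GABA type A receptor gene Gabrb1 held 5 saline-only and 0 methamphetamine-only positions, with a summed level of 167, 32.2 and 76.6 after saline and 39.1, 57.8 and 35.5 after methamphetamine.

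Of 50 ion channel genes 25 were hosts, with 58 saline-only, 50 methamphetamine-only and 33 shared positions. Cacnb2, an auxiliary calcium channel subunit, held 6 saline-only and 0 methamphetamine-only positions, with summed levels of 149, 93.2 and 91.3 scaled CPM after saline and 88.5, 85.5 and 60.8 after methamphetamine, without overlap. Trpm3, a cation channel, held 2. Its highest (chr19:22852147-22852246, plus strand) had 110, 125 and 122 after saline and 45.3, 74.6 and 104 after methamphetamine, also without overlap. Kcnma1, the large-conductance potassium channel, held 4, of which the highest had 119 reads in saline replicate 2 and 5 to 19 in each other library.

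Of 50 genes for cAMP, calcium and kinase signalling, 33 were hosts, with 73 saline-only, 49 methamphetamine-only and 50 shared positions. Besides Plcb1, its member Prkar1b held 4 saline-only positions and 1 methamphetamine-only, with a summed level of 196, 86 and 69.2 scaled CPM after saline and 8.23, 36.1 and 35.5 after methamphetamine. Gnao1, a G protein alpha subunit, held 3, with 79 reads of its highest position in saline replicate 2 and 1 to 11 elsewhere. Plcb4, a second phospholipase C, had 159, 53.7 and 111.2 after saline and 12.4, 126 and 111.4 after methamphetamine, low only in methamphetamine replicate 1. Of 56 RNA-binding and splicing genes 20 were hosts, with 72 saline-only, 47 methamphetamine-only and 56 shared positions. After Rbfox1 and Celf2, Msi2, an RNA-binding protein of stem cells and glia, held 4, and its highest position (chr11:88718183-88718282, minus strand) was at 57.6, 122 and 113 after saline and 134, 110 and 109 after methamphetamine. The midpoint of this peak lay 4 nt before an exon, so the peak reached into that exon.

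**Figure D4:**
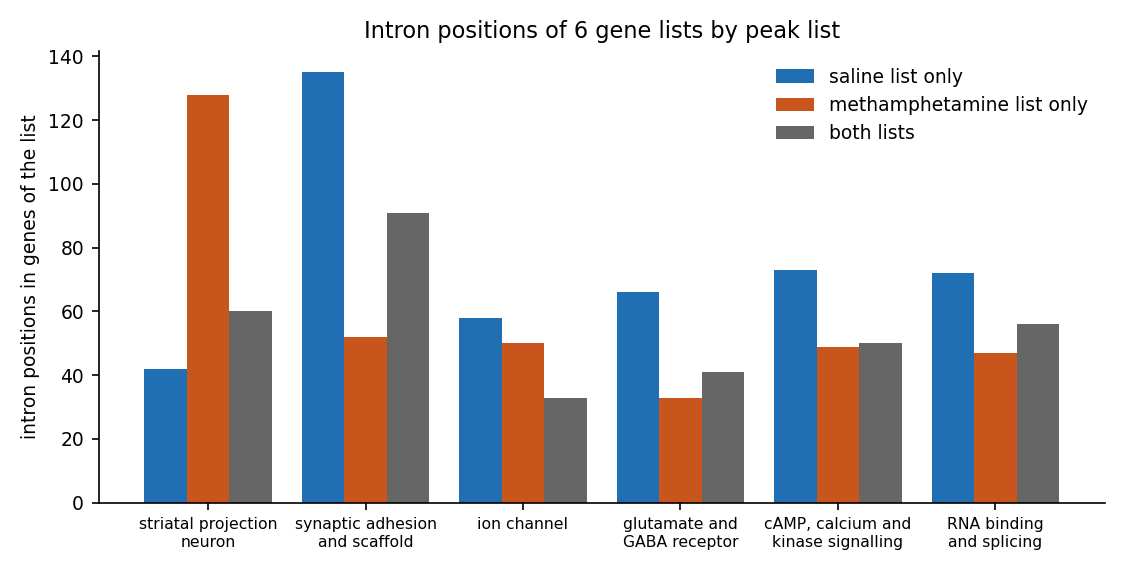
Intron positions (y axis, number) in genes of 6 lists, by whether the position stood in the saline list only, the methamphetamine list only or both. The list of striatal projection neuron genes has 42 saline-only and 128 methamphetamine-only positions, and the list of synaptic adhesion and scaffold genes 135 and 52.

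Of 22 immediate early genes only Nr4a2, an activity-induced nuclear receptor, was a host. Its position had 3, 9 and 3 reads in the saline pools and 0, 1 and 0 after methamphetamine, at the limit of detection. The lists of 12 astrocyte, 14 oligodendrocyte, 12 microglia and 10 endothelial genes held 2, 3, 4 and 3 positions, and 2, 2, 3 and 2 of their genes were hosts. These are 14.3% to 25% of each list, beside 12.9% of all genes measured by RNA-seq. The 12 cortical excitatory genes held 4 positions and the 12 choroid plexus genes 1, the last in Kl with 1, 2 and 13 reads in the saline pools and 1, 0 and 0 after methamphetamine. By the highest position of each gene, reads were few. In Slc1a2, the astrocyte glutamate transporter, there were 3, 0 and 27 reads in the saline pools and 2, 3 and 3 after methamphetamine. It was at 0 in saline replicate 2, so the groups overlapped. The highest positions of the oligodendrocyte genes Mobp and Mbp, the microglial genes Cx3cr1 and P2ry12, and the endothelial genes Pecam1 and Slco1a4 had 0 to 27 reads in any library. Emx1, a cortical transcription factor gene, had 30.5, 39.4 and 38.3 scaled CPM after saline and 24.7, 44.5 and 76.0 after methamphetamine, so the groups overlapped. The family genes are too few to compare with the 12.9% of all measured genes that were hosts. Hnrnph1 and Hnrnph2, which encode hnRNP H and a close paralog, held 0 positions, and Hnrnpf held 1, with a summed level of 4.52, 32.2 and 1.47 scaled CPM after saline and 2.06, 3.61 and 0 after methamphetamine. In all, 10 positions touched genes of small RNAs, the ribosomal and Mir8109 positions among them. They also included the scaRNA genes Gm22009, with 16, 12 and 16 reads in the saline pools and 72, 13 and 17 after methamphetamine, and Gm23751, with 9, 22 and 14 and then 44, 15 and 24, both highest in methamphetamine replicate 1.

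The rule that chose the positions uses no RNA-seq value, so RNA-seq of the same pools was tested. These libraries are titled as input, and whether the authors' peak calling used them is not given in the sources used here. Each gene was tested for a change in either direction, and the hosts are described beside all genes without a test of the set. Of the 18208 genes measured, 2343 were hosts (12.9%), and they were more abundant than most, with a median of 5.2 log2 CPM beside 3.44 for all genes, although 126 were below 0. With limma and Benjamini-Hochberg adjustment, 0 host genes had an adjusted p under 0.05, beside 0.0% of all genes (smallest adjusted p 0.9998). With edgeR on the recovered reads the count was also 0. At an unadjusted p under 0.05 there were 19 hosts (0.811%), 11 higher and 8 lower after methamphetamine, beside 1.52% of all genes. The median log2 change of the hosts was 0.0072, beside 0.002 for all genes, and the 10th and 90th percentiles of the hosts were -0.30 and 0.31. No change of RNA level was thus called in any host gene at this depth and replication. A shift of the hosts as a set was not tested.

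**Figure D5:**
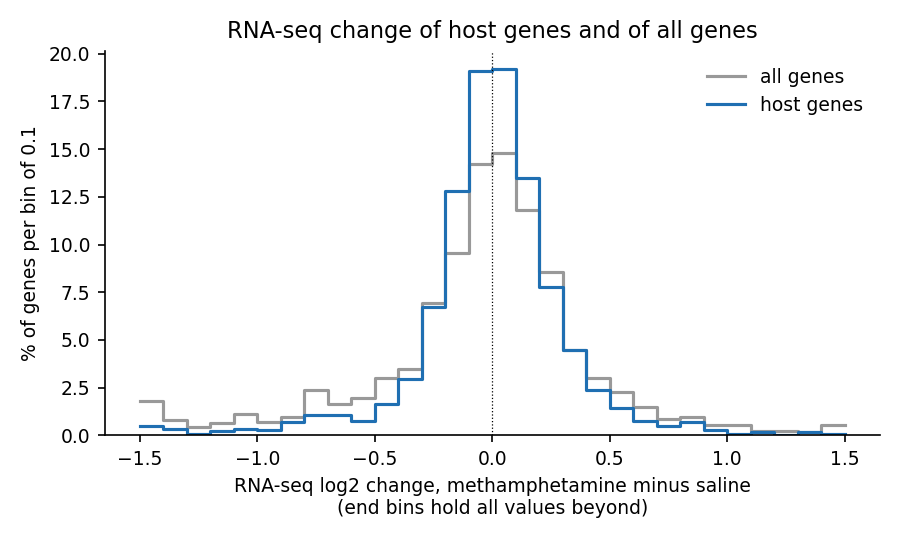
RNA-seq log2 change, methamphetamine minus saline (x axis, bins of 0.1), for the 2343 host genes and for all 18208 genes (y axis, percent of genes in each bin). Both distributions are centred near 0, with medians of 0.0072 and 0.002.

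The 5 hosts with the smallest unadjusted limma p are named as a ranking, with an adjusted p of 0.9998 each. Plekha7, an adapter protein of adherens junctions, had 3.88, 3.85 and 3.86 log2 CPM after saline and 4.41, 4.53 and 4.68 after methamphetamine, a change of 0.68 ± 0.19 (SE). Mid1, a ubiquitin ligase bound to microtubules, had 4.57, 4.32 and 5.2 and then 5.3, 6.6 and 5.36, a change of 1.06 ± 0.36 with its highest value in methamphetamine replicate 2. Rbm7, a subunit of a nuclear RNA decay complex, had 2.3, 2.48 and 2.6 and then 1.32, 1.62 and 1.15, a change of -1.10 ± 0.35. In these 3 genes the groups did not overlap. Iqcm had 4, 1 and 2 recovered reads in the saline pools and 0 in each methamphetamine library, and Tmem236 had 1, 2 and 1 and then 0, both too few for a fold.

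Host RNA overlapped between treatments in 5 of the 6 genes with the most positions, and 0 of the 6 passed limma's adjusted threshold. Rbfox1 averaged 7.63 ± 0.09 log2 CPM in saline pools and 7.57 ± 0.05 in methamphetamine pools (SD, n = 3 pools each), a limma change of -0.06 ± 0.14 (SE). Limma's estimate for Celf2 was 0.15 ± 0.22, for Nrxn3 0.08 ± 0.18, for Plcb1 -0.10 ± 0.16 and for Phactr1 -0.14 ± 0.20. Pde10a had 10.5, 10.4 and 10.5 log2 CPM after saline and 10.2, 10.3 and 10.1 after methamphetamine, without overlap, a change of -0.23 ± 0.20 with a limma adjusted p of 0.9998. Over the striatal projection neuron list the median change was -0.19 with a range of -0.37 to 0.12, and its 15 hosts had a median of -0.20. The summed level of this list follows the library sets given above, and their part in this median was not tested. Over the synaptic list the median change was 0.028, with 35 hosts at 0.0012. The genes of the precipitated family had changes of -0.07 ± 0.19 for Hnrnph1, 0.06 ± 0.27 for Hnrnph2 and 0.21 ± 0.21 for Hnrnpf, all with limma adjusted p of 0.9998.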

How the data were processed

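CLIP-seq and RNA-seq libraries from 3 pools per treatment were compared. The authors deposited whole-number counts per CLIP peak, 172271 lines that hold 147438 distinct positions, each used once. The deposited peak lists give each peak a signal value, used only as a score for ranking since no source states its scale, and p-values and q-values. RNA-seq values are log2 CPM per the file headers, with an offset of 0.5 reads, and 100% of values inverted to whole reads (tolerance 0.02). The submitters' processing notes name Trimmomatic, UMI-tools, STAR, bedtools, Subread, featureCounts, limma, edgeR and mm10, without their roles or order, so whether counts are of unique molecules is not given in the sources used here, and intervals cover counting error only. The peak caller and strand setting are not given in the sources used here either. Where genes overlap, counts are uncertain. A list holds 1 value per peak and treatment and none per replicate.

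Coordinates are 1-based on GRCm38, reading the deposited starts as BED. A peak's gene is the one in its name, since region rows of 172 positions belonged to another gene, 112 of them on the opposite strand. Annotation was GENCODE M21. CLIP counts were fitted with the quasi-likelihood test of edgeR 4.0.16 after filterByExpr and TMM scaling, with DESeq2 1.42.0 as an alternative, and RNA-seq with limma 3.58.1 (eBayes with trend) on all 18208 genes, in R 4.3.3, with Benjamini-Hochberg adjustment at 0.05. The fits were tested on simulated data. The RNA-seq fit recovered 109 of 200 genes (54.5%) given a log2 change of 2. The CLIP fit recovered 197 of 200 peaks given a log2 change of 4. Smaller changes were not simulated. RNA-seq gene symbols matched 3403 positions. Genes were named by rule: the 8 highest positions, the 8 lowest changes without overlap, the 6 hosts with the most positions, the 3 highest signals, up to 3 hosts per list by summed level, the 5 smallest RNA-seq p-values and the Hnrnph family. Drd2, Rgs9, Ppp1r1b, Cadm2, Ptprt, Gabrb1, Gm22009 and Gm23751 were added after their values were seen. The members and lists were chosen with earlier results of these data known. Replicate numbers were not taken as pairs of pools in the main fits. The p-values measure the spread between pools. Some genes that this rule names are not reported here.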

Additional observations from a re-analysis of the deposited data

How the results depend on the processing

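The number of positions was 3587 when any overlap with a methamphetamine position counted as shared, 3596 at 50 bp, 2631 with the authors' q under 0.01 and 3482 with regions from GENCODE. It was 3276 and 3167 when a methamphetamine position within 100 bp or 500 bp counted as shared, settings added after seeing the data. Without a filter on low counts, edgeR called 406 of 147438 positions, against 0 with the filter. Of the 3515 saline-only intron positions 124 were called, all 124 lower after methamphetamine. The lists were made from these libraries, which favours that direction, so nothing is read from these calls. The Mir8109 position passed only without the filter (log2 change -5.07, edgeR adjusted p 1.5e-06) and ranged from -5.12 to -1.78 over all 11 alternatives. No other setting gave an adjusted call in either assay. Among the filter-passing positions 37 had an unadjusted p under 0.05, and 26 to 123 when single replicates were left out, with 120 without saline replicate 2 and 123 without methamphetamine replicate 2. Among host genes the count was 19, and 7 to 99 without single replicates, with 96 when saline replicate 2 and 99 when methamphetamine replicate 2 was left out. With the replicate block, 10 positions and 12 host genes had an unadjusted p under 0.05 and 0 an adjusted one. Deviations of same-numbered pools had correlations of -0.346, -0.821 and -0.489 in RNA-seq and -0.368, -0.549 and -0.082 in CLIP. Each replicate number joined a library of set A with a library of set B, so these values cannot show whether pools were paired. With a term for the library set, chosen after seeing the data, the counts at an unadjusted p under 0.05 were 37 positions and 63 host genes.

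The mean read share after saline was 9.36% without the 1% of positions with the most reads (4.7% after methamphetamine, with each saline library above each methamphetamine library), 3.95% for positions with over 3 reads in each saline library (4.16% after methamphetamine) and 5.79% without the ribosomal position (3.55% after methamphetamine), the last added after seeing the data. The positions with over 3 reads still included the ribosomal one. Their shares by library were 3.46%, 5.08% and 3.3% after saline and 2.21%, 3.36% and 6.92% after methamphetamine. The turned order of these means thus rests on methamphetamine replicate 3, where the ribosomal position took its highest share. Over all positions, the mean share after saline ranged from 6.22% to 6.83% when single saline replicates were left out, and the share after methamphetamine from 4.06% to 6.42%. In windows of 200 nt, GGG was in 96.4% and GGGG in 70.3% of 138 sequences, windows that hold more letters. In 19 positions in no exon of their own gene, added after seeing the data, the shares were 89.5% and 57.9%. Depth limits these values: 812 of 3515 positions entered the fit.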
